A study of Homo sapiens with 8 samples.

Results

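The regions described here carried an mTOR peak in both FoxA1-knockdown libraries and in neither empty-vector library. mTOR chromatin immunoprecipitation was done in LNCaP, an established line of human prostate cancer cells that responds to androgen. One set of cells held the short-hairpin vector without a hairpin (shEV), the other set a hairpin that targets FoxA1 (shFoxA1). All of them were kept for 48 h without androgen, in RPMI medium with 2% charcoal-stripped serum, and were then treated for 24 h with 0.1% ethanol (EtOH) as vehicle or with the synthetic androgen R1881 at 10 nM. The 4 groups, shEV EtOH, shEV R1881, shFoxA1 EtOH and shFoxA1 R1881, had 1 library each, so no difference between them has a replicate check and no p-value is given. Peaks of the 4 lists on chromosomes 1 to 22, X and Y that overlapped by 1 bp or more were merged into 61118 union regions, and the members were chosen from presence in the lists: a peak in both shFoxA1 lists and none in either shEV list. This left 4222 members, 6.91% of the union regions. Absence means that no peak was listed, not that no mTOR was there. FoxA1 protein or RNA was not measured in these files, so the depth of the knockdown is not known from them.

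mTOR is the kinase at the core of the complexes mTORC1 and mTORC2, which link nutrients and growth factors to protein synthesis and metabolism. A fraction of it is found in the nucleus and can be cross-linked to chromatin. FoxA1 is a forkhead pioneer factor of luminal prostate cells that opens nucleosomal DNA for the androgen receptor, and its loss is known to redistribute the receptor. CpG-rich promoters of housekeeping genes lie in open chromatin in most cell types.

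The promoter of FOXA1 itself, the hairpin's target, was a member. In shFoxA1 EtOH a peak with a score of 58 covered chromosome 14 from 37594642 to 37595682 and was centred 87 bp downstream of the FOXA1 start. In shFoxA1 R1881 a peak with a score of 49 covered 37595312 to 37595654, assigned in the file to TTC6, the neighbour that starts on the other strand. Neither shEV list had a peak there. The nearest shEV peak lay 2086 bp away, in the region over a FOXA1 exon that all 4 lists shared. Within 50 kb of the FOXA1 start the shEV libraries had 4 (EtOH) and 5 (R1881) peaks and the shFoxA1 libraries 11 (EtOH) and 7 (R1881), and the promoter region was the only member among them. The FOXA1 promoter was no longer a member once the 4 lists were cut to equal length, because its R1881 score of 49 was the lowest score kept there and was shared by 3454 peaks.

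The promoter windows of 7 genes with a member at the promoter are printed to show what such sequence looks like. NSUN4, TARS2, MAPK8 and PCBD2 were among the 12 genes with the highest-ranked promoter members and had a window that overlaps the member. Some genes ranked above MAPK8 and PCBD2, such as GID4 and SNX12, are not printed. FOXA1, TFEB and RPS3 were added after their values were seen, as the hairpin's target, an mTORC1 effector and a ribosomal protein. The windows run from 250 bases before to 50 bases after the RefSeq start, 5′ to 3′ on the gene's strand, in GRCh38.p14. Capitals mark 4 short motifs on either strand: the ETS core CCGGAAG, the CCAAT box, the GC box GGGCGG and the forkhead core TGTTTAC.
FOXA1: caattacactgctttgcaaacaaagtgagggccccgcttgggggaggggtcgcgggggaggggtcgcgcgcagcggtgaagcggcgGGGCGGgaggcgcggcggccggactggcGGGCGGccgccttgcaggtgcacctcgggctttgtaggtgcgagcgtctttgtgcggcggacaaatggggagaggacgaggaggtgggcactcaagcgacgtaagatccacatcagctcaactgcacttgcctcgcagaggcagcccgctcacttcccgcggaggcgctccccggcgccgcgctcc
TFEB: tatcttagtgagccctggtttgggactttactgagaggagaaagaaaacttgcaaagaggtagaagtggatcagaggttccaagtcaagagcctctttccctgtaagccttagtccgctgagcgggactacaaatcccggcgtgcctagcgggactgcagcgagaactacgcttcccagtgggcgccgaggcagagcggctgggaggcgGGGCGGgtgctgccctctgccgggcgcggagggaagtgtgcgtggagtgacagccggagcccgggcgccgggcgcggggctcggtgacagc
RPS3: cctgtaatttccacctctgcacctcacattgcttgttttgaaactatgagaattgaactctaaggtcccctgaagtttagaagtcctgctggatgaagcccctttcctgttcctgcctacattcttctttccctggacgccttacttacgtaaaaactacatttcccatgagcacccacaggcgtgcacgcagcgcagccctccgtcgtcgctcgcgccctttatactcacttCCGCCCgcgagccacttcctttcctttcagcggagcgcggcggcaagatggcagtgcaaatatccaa
NSUN4: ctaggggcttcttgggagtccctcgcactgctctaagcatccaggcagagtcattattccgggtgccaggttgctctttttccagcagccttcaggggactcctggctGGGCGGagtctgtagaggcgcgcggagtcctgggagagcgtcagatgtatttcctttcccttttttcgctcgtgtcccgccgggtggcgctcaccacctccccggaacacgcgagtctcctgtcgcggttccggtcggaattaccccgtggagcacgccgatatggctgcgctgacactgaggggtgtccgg
TARS2: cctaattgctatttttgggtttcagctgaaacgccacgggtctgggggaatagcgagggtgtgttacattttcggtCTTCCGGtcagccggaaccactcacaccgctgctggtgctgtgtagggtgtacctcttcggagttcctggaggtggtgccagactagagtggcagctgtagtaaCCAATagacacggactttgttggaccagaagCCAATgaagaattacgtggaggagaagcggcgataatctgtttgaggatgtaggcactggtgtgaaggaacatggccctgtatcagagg
MAPK8: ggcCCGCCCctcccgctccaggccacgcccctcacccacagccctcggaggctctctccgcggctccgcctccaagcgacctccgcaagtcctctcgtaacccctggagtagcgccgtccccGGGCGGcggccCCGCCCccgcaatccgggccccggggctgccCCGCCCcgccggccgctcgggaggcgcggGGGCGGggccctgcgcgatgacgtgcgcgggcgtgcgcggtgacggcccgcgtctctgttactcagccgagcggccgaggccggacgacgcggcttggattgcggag
PCBD2: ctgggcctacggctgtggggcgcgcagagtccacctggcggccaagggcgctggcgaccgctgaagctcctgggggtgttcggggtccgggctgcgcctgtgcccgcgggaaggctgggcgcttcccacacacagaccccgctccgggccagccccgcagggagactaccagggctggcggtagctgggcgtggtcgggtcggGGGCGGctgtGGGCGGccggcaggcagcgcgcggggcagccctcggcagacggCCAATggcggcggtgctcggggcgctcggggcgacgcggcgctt

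The windows lie at chr14:37595200-37595499 (FOXA1, minus strand), chr6:41735559-41735858 (TFEB, minus), chr11:75399268-75399567 (RPS3, plus), chr1:46340557-46340856 (NSUN4, plus), chr1:150487169-150487468 (TARS2, plus), chr10:48306427-48306726 (MAPK8, plus) and chr5:134904881-134905180 (PCBD2, plus). Their GC content ran from 52.3% in RPS3 and TARS2 to 78.7% in MAPK8, and they held between 12 CpG dinucleotides (TARS2) and 46 (MAPK8). MAPK8 had 5 GC boxes, FOXA1 and PCBD2 had 2 each, and NSUN4, TFEB and RPS3 had 1 each. TARS2 had no GC box but an ETS core starting 174 bases before the start and CCAAT boxes at 70 and 39 bases before it. The forkhead core TGTTTAC was not found in these 7 windows, which says only that these letters are not in them. A shorter form, TGTTTNC, was not marked. The FOXA1 window holds a match to it on the other strand, as gcaaaca near the beginning of the window.

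Over the members as a whole, 727 coding genes had one at the promoter, of which 601 had a window in the promoter table and 481 a window that overlapped the member. Their windows had a median GC content of 66.7%, against 62.7% for all 15843 coding promoters of the same 300 bases and 66.3% for promoters of regions present in all 4 lists. The ETS core stood in 21.1% of the members' promoters (Wilson 95% interval 18.1 to 24.6), in 18.3% (15.9 to 21.0) of those shared by all 4 lists and in 14.2% of all promoters. The GC box stood in 73.7%, 72.3% and 58.5% of the same sets. The forkhead core was in 2.83% (1.77 to 4.48), 1.89% and 2.61%, and its shorter form TGTTTNC, which includes it, in 13.0%, 11.7% and 14.6%. A short motif of the androgen receptor, AGAACA, was in 7.65%, 6.99% and 11.2%, and the TATA box, TATAAA, in 5.16%, 4.55% and 9.63%. For each of these motifs the members' promoters lay nearer to the promoters of regions shared by all 4 lists than to all promoters, except for the forkhead core, whose 3 shares lay within the members' interval. Among windows of 65 to 75% GC, AGAACA stood in 5.46% of the members' promoters and 5.33% of all promoters. The TATA box stood there in 2.94% and 2.82%, the GC box in 84.87% and 85.03% and the ETS core in 23.9% and 17.9%. Below 55% GC the members' shares stayed lower for AGAACA and the TATA box and higher for the GC box and ETS core. At 75% GC or more the ETS core stood in 9.09% and 11.2%. The part of GC content in these shares was not tested further. Of the members' promoters, 22.5% started within 1 kb of a gene on the other strand, against 23.9% for regions of all 4 lists and 19.0% overall.

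The number of members went with the length of the lists. The shEV lists held 24948 (EtOH) and 26074 (R1881) peaks and the shFoxA1 lists 35121 (EtOH) and 39570 (R1881). The opposite pattern, a peak in both shEV lists only, was found in 591 regions, so there were 7.14 members for each such region. Both R1881 lists alone shared 3221 regions, both EtOH lists alone 1964, and all 4 lists 11634. When each list was cut to its 24948 highest-scoring peaks, 1583 regions had the members' pattern and 1115 the opposite one, a ratio of 1.42; with peaks tied at the lowest score kept, the numbers were 1859 and 1012, and with those ties left out 1345 and 1220. At equal lengths the pattern was less frequent than sharing by both R1881 lists only (2492) or both EtOH lists only (2036). The read depth of the libraries is unknown, so a deeper or better enriched pair of shFoxA1 libraries and more bound sites cannot be told apart in the count.

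Members were weak peaks within their lists. Each library's score is the authors' value and was ranked only inside its own list. The members had a median score of 49 in both shFoxA1 lists, with a range of 15 to 223 in EtOH and 14 to 425 in R1881, where the whole lists had medians of 66 and 65. Their median rank was the 36.6th percentile in EtOH and the 37.4th in R1881, against the 80.9th and 82.3rd for regions of all 4 lists. Peaks of single shFoxA1 lists ranked lower still, at the 27.7th and 28.4th. In the upper part of both lists, above the median, stood 699 members (16.6%) and 79.8% of the regions shared by all 4. Only 16 members were in the top 20% of both lists. Ranks in EtOH and R1881 were weakly related across the 4222 members (Spearman rho 0.28) and more closely across the regions of all 4 lists (rho 0.76); this is a description over regions of the same pair of libraries, and the members span a narrower range of scores.

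**Figure D1:**
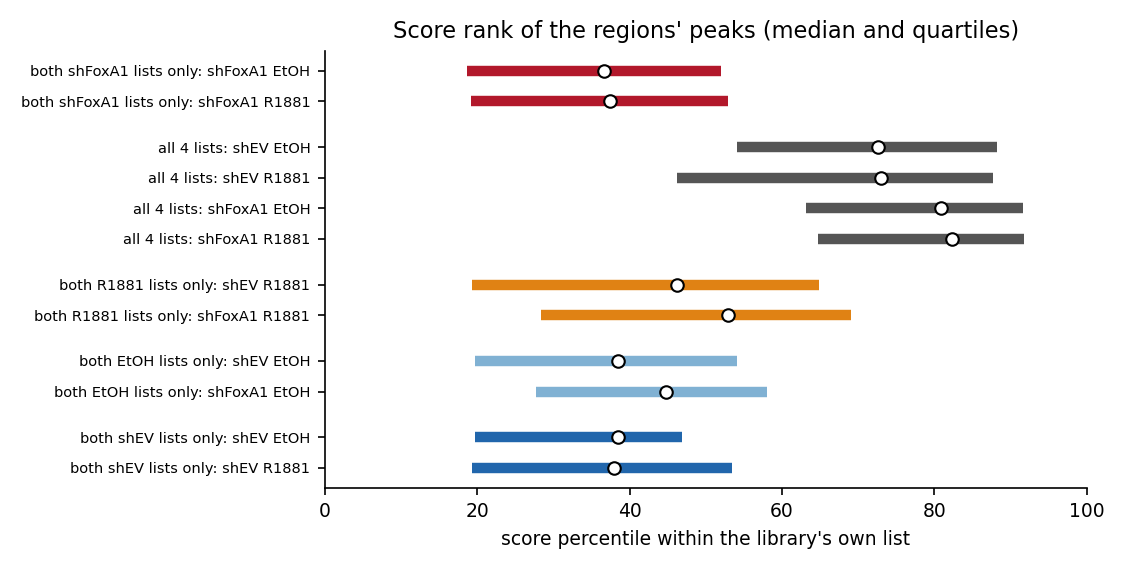
Within-list score percentile of the peaks behind each presence pattern, as median (circle) and quartiles (bar), for every library that holds the pattern. The members' bars (red) sit at medians of 36.6 and 37.4, like those of the regions in both shEV lists only and far below the regions of all 4 lists.

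The paired peaks of a member mostly overlapped by far more than the 1 bp that the rule required. Other patterns were not measured for this. Of the 4222 members, 4179 held 1 peak from each list and 43 held 3 or 4 peaks. The overlap had a median of 333 bp, which was 94.4% of the shorter peak, and the centres were a median of 88.5 bp apart. Members were 310 to 2540 bp long, with a median of 585 bp. The nearest shEV peak was a median of 19851 bp away, and 361 members (8.55%) had one within 1 kb. At the edge of the rule, the closest members were 4 bp from a shEV peak (an intron region assigned to SNORD74B and an L1PA7 element assigned to SLCO4C1) and 5 bp from one (a simple repeat assigned to TPTE). The regions kept out by the smallest overlaps touched a shEV peak by 1 bp at the LIMCH1 promoter, 9 bp at CTBP1-AS and 19 bp near CCDC124.

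Promoters made up a larger share of the members than of any other pattern compared. They held 838 members, 19.8% (Wilson 95% interval 18.7 to 21.1), against 11.1% of the regions of all 4 lists, 7.03% of those in both EtOH lists only, 4.25% of those in both R1881 lists only and 2.88% of those in both shEV lists only. Regions of shFoxA1 EtOH only stood at 11.1% and those of shFoxA1 R1881 only at 8.04%. The difference from the regions of all 4 lists was 8.72 percentage points (Newcombe 95% interval 7.40 to 10.1), and from those of both R1881 lists only 15.6 (14.20 to 16.98). These intervals cover counting error over regions and not the spread between libraries. CpG islands outside promoters held 6.87% of the members against 3.06% for all 4 lists. Introns held 35.6% and intergenic sequence 36.7% of the members, where the regions of all 4 lists stood at 32.2% and 49.8%. The nearest start site was within 1 kb for 29.1% of the members and 16.4% of the regions of all 4 lists. Cutting the lists to equal length left promoters at 17.8% of the members and 10.7% of the regions of all 4 lists. When peaks in repeats were left out, the order turned, with promoters at 40.3% of the members and 42.0% of the regions of all 4 lists.

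**Figure D2:**
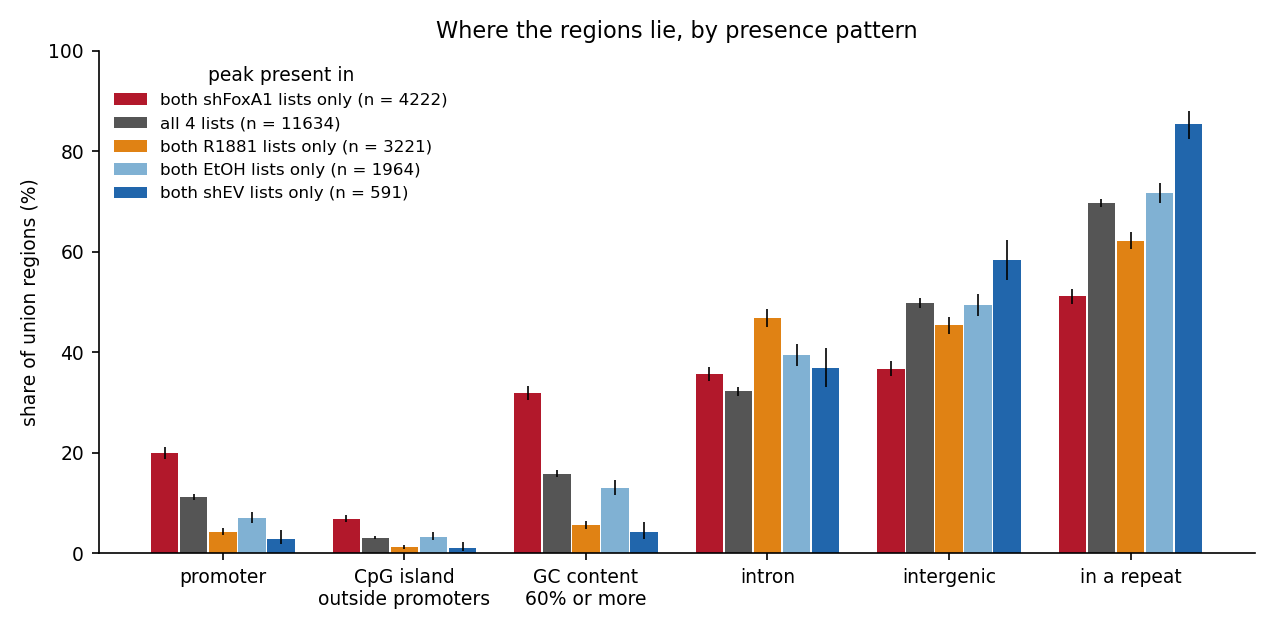
Share of union regions (%) in promoters, CpG islands outside promoters, sequence of 60% GC or more, introns, intergenic sequence and repeats, for 5 presence patterns; bars carry Wilson 95% intervals for counting error. The members (red) have the highest bars for promoters (19.8%) and for GC content of 60% or more (31.9%) and the lowest for repeats (51.2%).

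The centres of promoter members were a median of 84.5 bp upstream of the start, and 66.1% were upstream of it, against 67.4% for the promoter regions of all 4 lists. The members' promoter regions had a median length of 717.5 bp, where all members had 585 bp.

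Members were rich in G and C. Their median GC content was 50.6% (quartiles 40.5 to 63.2), against 43.9% for all 4 lists, 42.6% for both R1881 lists only, 41.3% for both EtOH lists only and 39.0% for both shEV lists only. Regions of shFoxA1 EtOH only and of shFoxA1 R1881 only had medians of 45.5% and 45.2%. GC content moved with membership across the whole range: 3.95% of the union regions under 35% GC were members, and 14.7% of those at 70% GC or more. The share of regions in both shEV lists only went the other way, from 2.00% under 35% GC to 0.16% between 65 and 70% GC and 0.42% at 70% GC or more. At equal list lengths the members rose from 2.03% (Wilson 95% interval 1.68 to 2.44) in the lowest bin to 6.66% (5.67 to 7.81) in the highest. Regions in both shEV lists only stood there at 3.52% (3.06 to 4.04) and 2.11% (1.57 to 2.82). Below 40% GC the opposite pattern was then the more frequent one, and above 40% the members were.

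Within a bin of GC content, the promoter share of the members was mostly close to that of the regions of all 4 lists. The interval of the difference left out 0 in 2 of the 9 bins, from 45 to 50% GC (4.47% of the members against 2.58%) and from 50 to 55% GC (18.5% against 13.1%). At 70% GC or more, promoters held 46.8% of the members and 47.5% of the regions of all 4 lists. The part of GC content in the members' promoter share was not tested beyond these bins.

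**Figure D3:**
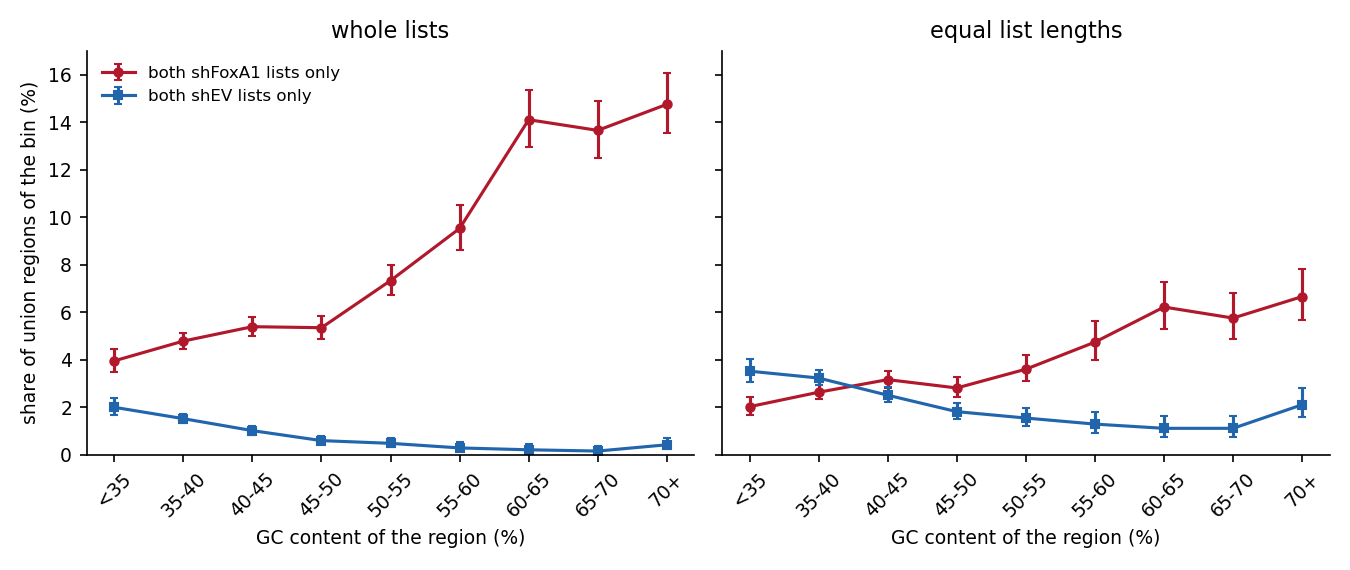
Share (%) of union regions found in both shFoxA1 lists only (red) or in both shEV lists only (blue) in 9 bins of GC content, for the whole lists and for lists cut to equal length; bars are Wilson 95% intervals for counting error. In the whole lists the members go from 3.95% to 14.7% across the bins, and at equal lengths from 2.03% to 6.66%.

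Repeats held 2160 members (51.2%). The share was 57.7% for regions of shFoxA1 R1881 only, 59.1% for shFoxA1 EtOH only, 62.2% for both R1881 lists only, 69.7% for all 4 lists, 71.7% for both EtOH lists only and 85.4% for both shEV lists only. The annotation gives promoters before repeats, so a promoter region is never counted as a repeat. Within introns the shares were 62.0% for the members, 64.6% for both R1881 lists only and 79.99% for all 4 lists. Within intergenic sequence the members were not the lowest, with 79.3% against 70.6% for both R1881 lists only and 88.3% for all 4 lists. Long terminal repeats, the ends of endogenous retroviruses, held 11.1% of the members, close to the 11.8% of both R1881 lists only, 12.1% of shFoxA1 EtOH only and 10.8% of shFoxA1 R1881 only, and 26.4% of the regions of all 4 lists. MER11A, one such element, held 16 members and 312 regions of all 4 lists. Of its 517 union regions, 3.09% were members, beside 6.91% of all union regions. Satellite repeats, mostly the alpha satellite of centromeres, held 1.47% of the members, 0.87% of the regions of both R1881 lists only and 5.05% of those of all 4 lists. LINE elements held 28.6% of the members and 29.9% of the regions of all 4 lists. The young L1 elements L1HS and L1PA2 to L1PA8 held 14.8% of the members, 9.48% of the regions of all 4 lists and 15.5% of all union regions. SVA, a GC-rich composite retrotransposon, held 107 members (2.53%) and 2.08% of the regions of all 4 lists. That difference was 0.45 percentage points (Newcombe interval -0.06 to 1.03). The SVA share was 1.99% for both EtOH lists only and 1.97% for shFoxA1 EtOH only. It was lower for shFoxA1 R1881 only (1.08%), both shEV lists only (0.85%) and both R1881 lists only (0.56%). Of the 416 union regions in SVA_D, 49 (11.8%) were members, above the 6.91% of all union regions, and 86 were regions of all 4 lists. Repeats of the tRNA class held 3 members and 43 regions of all 4 lists, a difference in share of -0.30 percentage points (Newcombe interval -0.43 to -0.13). Whether they are transcribed tRNA genes was not assessed. How uniquely reads map in repeats was not assessed.

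The members ranked highest in both lists, near coding genes, were of several kinds. NINJ1, which drives rupture of the plasma membrane in dying cells, had one in its first intron at chromosome 9, 93132170 to 93132761, with scores of 200 in EtOH and 132 in R1881. CELF6, an RNA-binding regulator of splicing, had one over its first exon with scores of 134 and 209. STK11, the kinase LKB1 that activates AMPK, had one in a CpG island 11042 bp upstream with 166 and 112. Other members of the 20 highest lay far from promoters, such as an L1MA7 element upstream of CYLC2 (166 and 132), an intron next to GAGE1 (177 and 132) and a tRNA-His copy in the first intron of NFIB (123 and 122).

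Among the 12 highest-ranked promoter members, NSUN4, which methylates mitochondrial ribosomal RNA, had scores of 166 in EtOH and 122 in R1881. TARS2, the mitochondrial threonyl-tRNA synthetase, had 144 and 122. GID4, the substrate receptor of a ubiquitin ligase, also had 144 and 122, and SNX12, a sorting nexin, had 123 and 132. MAZ, a zinc-finger factor that binds GC-rich DNA, had 123 and 112, with a shEV peak 884 bp away. MAPK8, the stress kinase JNK1, had 113 and 112, and PCBD2, a pterin dehydratase, had 103 and 132. CYBC1, SRRM3, SGSM1 and STEAP1, a surface protein of prostate cells, were also among the 12.

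Among all 20037 coding genes, 2203 (11%) had a member within 50 kb of their start, by the nearest gene given in the files, and 727 (3.63%) had one at the promoter. Regions of all 4 lists lay near 21.6% of the coding genes, those of both R1881 lists only near 6.78% and those of both shEV lists only near 1.02%. Most genes had a single member: 2023 had 1, 161 had 2 and 19 had 3 or more. Of the 2203 genes, 620 (28.1%) also had a region of all 4 lists, and 590 had no union region besides their members.

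GRB10, an adaptor that mTORC1 phosphorylates and that restrains insulin signalling, had the most members. It had 5, among 8 union regions assigned to it, and none of the 8 was shared by all 4 lists. On chromosome 7 they lay at the promoter (50793866 to 50794725), in the 5′ untranslated exon (50792432 to 50792919), in the first intron (50788098 to 50788788) and as a pair deep in the gene (50669806 to 50670268 and 50671129 to 50671952). Their scores ran from 27 to 42 in EtOH and from 20 to 74 in R1881, low in both lists. Over the body of the gene, from 50590068 to 50793453, the shEV lists had 3 (EtOH) and 0 (R1881) peaks and the shFoxA1 lists 9 (EtOH) and 10 (R1881). At equal list lengths none of the 5 was a member, and with tied peaks kept only the region of the first intron was. Of the 19 genes with 3 or more members, all but GRB10 had 3. The tie was broken by alphabet for the names given, among them AGPAT3, CDC42EP4, FBXL17, GPR137C, GSE1, LRTM2, MCCC1 and NFIB. AGPAT3, an acyltransferase of phospholipid synthesis, had its highest scores in an intron (188 in EtOH and 65 in R1881), and 2 of its 3 members stayed at equal lengths.

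**Figure D4:**
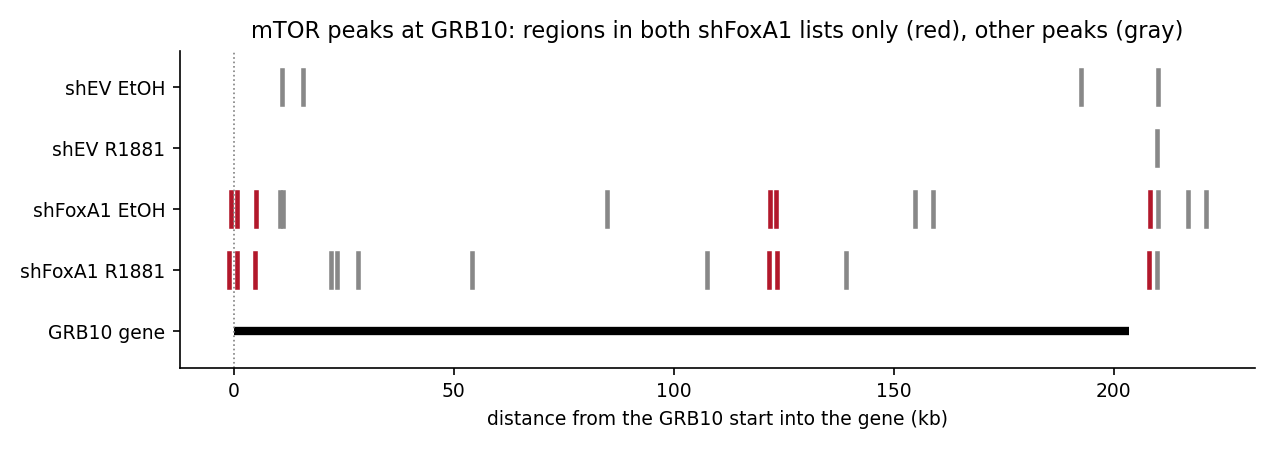
mTOR peaks of the 4 libraries along GRB10, by distance (kb) of the peak centre from the start of the gene; red marks peaks in regions found in both shFoxA1 lists only, gray marks other peaks, and the black bar is the gene. The body of the gene carries 9 and 10 peaks in the shFoxA1 lists against 3 and 0 in the shEV lists.

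Listed transcription factors of luminal prostate cells had members at 7 of 20 genes (35%, Wilson 95% interval 18.1 to 56.7), beside 11% of all coding genes. Among them were NFIB, GATA2, ONECUT2, POU2F1, FOXA1 and GRHL2. NFIB, a nuclear factor that binds with FoxA1, had 3 members, one at a promoter with scores of 123 and 65, at 102 bp from a shEV peak. GATA2, which assists the androgen receptor, had one 4395 bp upstream with 103 and 83, only 132 bp from a shEV peak. ONECUT2, a homeobox factor of aggressive prostate cancer, had one at its promoter with 58 and 57, 296 bp from a shEV peak. ONECUT2 is also on the list of neuroendocrine markers and is counted in both. With lists of equal length, 4 of the 20 genes kept a member, beside 4.08% of all coding genes. Of 24 forkhead genes, 2 had a member, FOXA1 and FOXK1 (8.33%, 2.32 to 25.8). A region of all 4 lists lay near 12 of the 24, beside 21.6% of all coding genes.

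Androgen-induced genes had members at 9 of 35 (25.7%, 14.2 to 42.1), beside 11% of all coding genes. A larger number, 14 of 35, had a region in both R1881 lists only, and 13 of 35 one in all 4 lists. The shares of all coding genes for these 2 patterns were 6.78% and 21.6%. MAF, a basic leucine zipper factor, had a promoter member with scores of 58 in EtOH and 112 in R1881, at 594 bp from a shEV peak. SLC45A3, which encodes the surface protein prostein, had one in its first intron 328 bp from the start, with 94 and 49. TMPRSS2, the protease gene whose androgen-driven promoter is often fused to ERG, had 2: one 28446 bp upstream (42 and 102) and one in its first intron (21 and 27), the latter 886 bp from a shEV peak. NDRG1, a stress-response gene, also had 2, and EAF2, SORD, INPP4B and TRPM8 were among the others. At equal list lengths 4 of 35 kept a member. Of 12 androgen-repressed genes, 2 had a member, PMP22 and DDC (16.7%, 4.70 to 44.8), beside 11% of all coding genes.

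Of 41 genes of the mTOR complexes and their regulators, 8 had a member (19.5%, 10.2 to 34.0), beside 11% of all coding genes. At the promoter 0 of 41 had one (Wilson upper limit 8.57%), beside 3.63% of all coding genes. DEPTOR, an inhibitory partner of mTOR, had one in its first intron 498 bp from the start (66 and 74). CASTOR1, the arginine sensor, had one 1627 bp inside (103 and 49), and FNIP1, part of the amino acid pathway at the lysosome, one 46163 bp upstream of its start, within an intron of another gene (84 and 41). RHEB, the GTPase that activates mTORC1, and SESN3, AKT1S1, DDIT4 and RICTOR were the others. Cutting the lists to equal length left 1 of the 41, DEPTOR, with its member, beside 4.08% of all coding genes, and with tied peaks kept CASTOR1 and RHEB had theirs too.

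Downstream of mTOR, 12 of 27 effector genes had a region of all 4 lists, beside 21.6% of all coding genes. A member lay near 6 of the 27 (22.2%, 10.6 to 40.8), beside 11% of all coding genes. SREBF2, the master factor of sterol synthesis, had one over its first exon with scores of 123 in EtOH and 83 in R1881, with the nearest shEV peak 76260 bp away. TFEB, the lysosomal transcription factor that mTORC1 holds in the cytoplasm, had one at a promoter with 84 and 102. PPARGC1A, the coactivator of mitochondrial genes, had one at a promoter with 75 and 112 and a second in an intron. GRB10, SREBF1 and LARP1, which binds mRNAs of the translation machinery, were the rest. SREBF2, TFEB and PPARGC1A were members at equal list lengths, and the other 3 were not.

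Cytosolic ribosomal proteins, whose synthesis mTORC1 promotes, had members at 13 of 76 genes (17.1%, 10.3 to 27.1), beside 11% of all coding genes. At the promoter they had them at 10 of 76 (13.2%, 7.31 to 22.6), beside 3.63% of all coding genes, and 7 of the 76 had a promoter region of all 4 lists. RPS3 had the highest, with scores of 75 in EtOH and 175 in R1881. RPS15 (84 and 49), RPL13A (84 and 49) and RPL36 (66 and 20) also had one at the promoter, and RPL36 had another in an SVA_D element nearby (66 and 83). The promoter members of RPL3, RPL36 and RPS15 were within 1 kb of a shEV peak, at 58, 751 and 838 bp. In lists of equal length 5 of 76 genes kept a member, and with tied peaks kept RPS15 and RPL13A did as well. Many of these genes host small nucleolar RNAs, and a peak cannot be divided between host and guest. Mitochondrial ribosomal proteins had members at 6 of 60 genes (10%), near the 11% of all coding genes. Members lay at the promoter for 4 of the 60 (6.67%), beside 3.63% of all coding genes, led by MRPL3 (75 and 74) and MRPL39 (84 and 65).

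Among metabolic genes, those of lipid and sterol synthesis had the highest share. They had members at 7 of 32 (21.9%, 11.02 to 38.8), beside 11% of all coding genes. A larger number, 10 of 32, had a region in both R1881 lists only, beside 6.78% of all coding genes. Among the 7 were SREBF2 and FASN, the fatty acid synthase. FASN had 2 members (94 and 57, and 84 and 57), at 468 and 503 bp from a shEV peak. Glycolysis and glucose uptake had members at 4 of 26 (15.4%): PGK1, PFKFB4, PFKL and GPI. The tricarboxylic acid cycle and respiratory chain had them at 3 of 39 (7.69%), COX4I1 and COX5A among them. At equal list lengths 2 of the 32 lipid and sterol genes had a member. PGK1, with a member in an LTR2 element 35102 bp upstream (66 and 102), kept it there, and PFKFB4, PFKL, GPI, COX4I1 and COX5A did not.

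In the cell cycle 7 of 36 genes had a member (19.4%, 9.75 to 35.03), beside 11% of all coding genes. CDK1, the mitotic kinase, had one 9324 bp upstream (94 and 83), RB1, the brake on entry into S phase, one at a promoter (66 and 41), and CCND1, the G1 cyclin D1, one over its 5′ untranslated exon (42 and 41) 719 bp from a shEV peak. With lists cut to equal length 1 of 36 had a member, CDK1, and RB1 and CCND1 did not. Of 42 chromatin regulators, 19 had a region of all 4 lists, beside 21.6% of all coding genes. Members lay near 9 of the 42 (21.4%, 11.7 to 35.9). NCOA1 and NCOA3, coactivators of nuclear receptors, had one at their promoters, and NCOA1 had another in an L1PA12 element 10783 bp upstream (94 and 65). KDM5C and KDM1A, both histone demethylases, were among the 9 as well. At equal list lengths 1 of 42 kept a member, NCOA1, by the upstream region and not the promoter. RNA polymerase II and Mediator had members at 2 of 41 (4.88%), MED22 and POLR2D, both classed as promoter. The MED22 region was centred 473 bp downstream of the MED22 start. Whether its promoter class belongs to MED22 or to a neighbouring gene was not assessed. RNA polymerase III and its factors had members at 3 of 28 (10.7%), BDP1, GTF3C3 and POLR1D. Both shares stand beside the 11% of all coding genes.

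Among lineage lists, neuroendocrine markers, which rise in prostate cancers that escape androgen dependence, had members at 4 of 18 (22.2%, 9.001 to 45.2). The 4 were PEG10, ONECUT2, POU3F2 and SOX2, and 11% of all coding genes had a member. ONECUT2 is also counted among the luminal factors. POU3F2, a neural factor, had one over its single exon with 123 in EtOH and 34 in R1881, and SOX2, a stem-cell factor, one with 34 and 49. Neither was a member at equal list lengths, where 2 of the 18 genes had one. Basal and mesenchymal markers had 0 of 21, with a Wilson upper limit of 15.5% (the limit of 3 counts used for a count of 0 gives 14.3%). Genes of unrelated tissues had 2 of 30 (6.67%), OPN1SW and MBP, in a tRNA-Pro copy and an L1PA4 element. Of the 18 lists, 4 had an interval above the share of all coding genes: the luminal factors, the androgen-induced genes, the chromatin regulators and, by a narrow margin, lipid and sterol synthesis. With no shEV peak within 1 kb, lipid and sterol synthesis stood at 6 of 32 and the androgen-induced genes at 7 of 35, beside 10.1% of all coding genes, and at equal list lengths the chromatin regulators stood at 1 of 42, below the 4.08% of all coding genes. The intervals cover counting error only, and these lists also had regions of all 4 lists at 30.0% to 45.2% of their genes, beside 21.6% of all coding genes. Presence of a peak gives no level of expression.

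**Figure D5:**
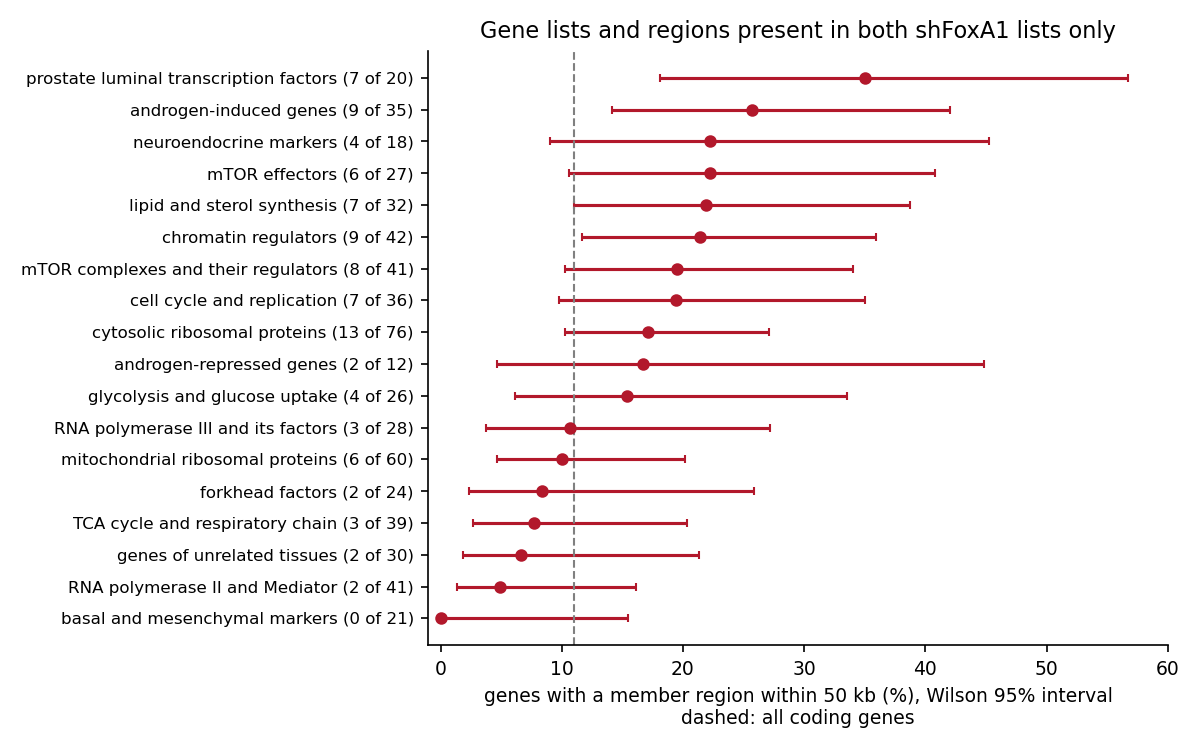
Share (%) of the genes of each list with a member within 50 kb of the start, with Wilson 95% intervals for counting error; the dashed line is the share of all coding genes, 11%. The luminal factors stand highest at 35% and the basal and mesenchymal markers lowest, at 0 of 21.

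Members were spread over all chromosomes. They made up between 5.33% of the union regions of chromosome 13 and 8.51% of those of chromosome 15. Across the 23 chromosomes without Y, chromosomes of higher median GC content held a higher share (Pearson r 0.64, Spearman rho 0.76), which describes the same libraries and carries no test. Chromosome 19, with a median GC content of 51.4%, stood at 7.93%, and chromosome 3, at 41.9%, stood at 6.06%.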

How the data were processed

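Peak lists of 4 mTOR immunoprecipitated libraries, 1 per group, were used; the 4 input libraries were not analysed here. The build was hg38, and HOMER 4.11.1, MACS2, BWA 0.7.12, deepTools 3.5.0, Trimmomatic 0.36 and Picard 2.0.1 are named, without role or order, per the submitters' processing notes. The deposited score of each peak is the authors' value from peak calling, with its definition not given in the sources used here. Each peak's deposited fraction of G and C was printed as a percentage. Class, repeat, nearest gene and distance to its start were taken as deposited, from the peak with the higher within-list score percentile. Coordinates count from 1. Depth per library is unknown, and the intervals cover counting error only.

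Union regions, shares, Wilson and Newcombe 95% intervals and medians were computed in Python 3.11.15 with pandas 2.3.3, numpy 2.4.6 and scipy 1.17.1, and the merging was tested on 6000 simulated regions, of which 100% were recovered. A gene had a member when the deposited nearest gene lay within 50 kb. Symbols were matched to a RefSeq table (GRCh38.p14), and 1 gene of the respiratory chain list was not matched. Promoter windows came from RefSeq; 14 motifs were searched on both strands. Motifs could overlap, as the shorter forkhead core includes the longer. Members, lists and motifs were chosen with earlier results of these data known. Named genes were the 20 coding-gene members and 12 promoter members with the highest value of the lower of their 2 percentiles, up to 4 genes per list, the 10 genes with the most members (ties by alphabet), and FOXA1; further list genes and the repeat names were picked after their values were seen. Some genes that the rule names are not reported here. Alternatives were a 50% overlap, no shEV peak within 1 kb, the shFoxA1 peaks above their list's median score rank, equal list lengths, the 10000 highest peaks, no repeats and a 10 kb window. At equal lengths, peaks tied at the lowest score were taken in order of position; keeping or leaving out all ties was added after seeing the data, as was taking class and GC content from the peak of 1 library.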

Additional observations from a re-analysis of the deposited data

Results flagged for a closer look

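Outside chromosomes 1 to 22, X and Y, on contigs and other sequences left out of the comparisons, 22 of 783 union regions (2.81%, Wilson 95% interval 1.86 to 4.22) had a peak in both shFoxA1 lists and in neither shEV list. They lay on 14 sequences. A peak in both shEV lists only was found in 19 regions there.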

How the results depend on the processing

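No paired analysis was possible because each group has 1 library and the labels carry no replicate numbers. The number of members stayed within 1.5 times with a 50% overlap (4009, including 3901 of the members) and with no shEV peak within 1 kb (3861). It moved to 699 with the shFoxA1 peaks above their list's median score rank, 1583 at equal lengths (1542 of them members of the whole lists), 1859 with ties kept, 1345 with ties left out, 519 with the 10000 highest peaks and 2093 without repeats. Only 56 of the 519 were members before, since a shorter shEV list excludes fewer regions. In the same order, beside 19.8%, the promoter share was 16.6%, 17.8%, 17.6%, 18.0%, 24.5% and 40.3%, and the median GC content, beside 50.6%, was 45.9%, 46.6%, 47.1%, 47.1%, 52.8% and 62.1%. The repeat share, beside 51.2%, was 62.8% above the median rank, 59.9% at equal lengths, 59.1% with ties kept or left out. Without repeats the rise in promoter share follows from leaving out regions of the other classes; regions of all 4 lists then stood at 42.0%. Otherwise the cause was not tested.

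The share of coding genes with a member, 11%, was 10.4% with a 50% overlap, 10.1% with no shEV peak within 1 kb, 1.72% above the median rank, 4.08% at equal lengths, 4.78% with ties kept, 3.53% with ties left out, 1.39% with the 10000 highest peaks, 7.53% without repeats and also with a 10 kb window, and 3.63% for promoters alone. It falls with fewer regions or a smaller window. Taking class and GC content from the peak of 1 library moved the promoter share, the repeat share and the median GC content by less than their 95% intervals. Of the 18 lists, 10 moved outside their interval at equal lengths, 14 above the median rank, 1 with the 10 kb window and 0 with no shEV peak within 1 kb; 0 of the 14 motif shares moved when windows had to overlap the member. Of the 112 list regions, counted once per list, 33 were members at equal lengths. Depth is unknown and each group is 1 library, so list length, depth and hairpin cannot be told apart.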
